A study of Mus musculus with 124 samples.

Results

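The nuclear respiratory chain genes are the genes of the mouse nucleus that encode subunits of the mitochondrial respiratory chain and of ATP synthase. Their rows were taken from the deposited count table by symbol: names that begin with Nduf but not Ndufaf for complex I, Sdha to Sdhd for complex II, Uqcr for complex III, Cox4 to Cox8 for complex IV and Atp5 for complex V. The rule found 91 of 53465 genes. Of these, 7 were pseudogenes, which were counted and left aside. The other 84 comprised 38 genes of complex I, 4 of complex II, 8 of complex III, 18 of complex IV and 16 of complex V. Their RNA was compared between monocytes, T cells and B cells and between treatments.

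Oxidative phosphorylation passes electrons from NADH through complex I and from succinate through complex II to ubiquinone, then through complex III and cytochrome c to complex IV, which reduces oxygen. Complexes I, III and IV pump protons across the inner mitochondrial membrane, and complex V, the ATP synthase, lets them flow back and makes ATP. Complexes I, III, IV and V are built from subunits of both the nuclear and the mitochondrial genome, and complex II from nuclear subunits alone. Among blood leukocytes, resting lymphocytes rely on oxidative phosphorylation to a large degree, activated T cells raise both glycolysis and respiration, and stimulated monocytes are known for strong glycolysis.

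Blood was taken from CD1 mice at postnatal day 35 to 40, and monocytes, T cells and B cells were separated by flow cytometry from what the labels call PBMC, the mononuclear cells of peripheral blood. The study asked for RNA markers in blood of impaired cognition after alcohol before birth or diabetes of the mother. The labels give 3 treatments. CBM is the label of all batch 2 samples and is not spelled out there (13 monocyte, 12 T cell and 13 B cell samples). EtOH, in batch 1, is 25% ethanol in PBS given intraperitoneally at 4.0 g/kg daily on embryonic days 16 and 17 (8 monocyte, 9 T cell and 8 B cell samples). PBS, also in batch 1, carries no further description (8 monocyte, 6 T cell and 8 B cell samples). The labels also describe a maternal diabetes model, made by intraperitoneal streptozotocin at 150 mg/kg in citrate buffer, without tying it to a treatment name. They do not say whether samples of a group came from different animals, so the p-values measure the spread between these samples only. In bulk RNA of sorted cells, fewer cells of a type and less RNA per cell cannot be told apart.

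Sample totals ran between 0.33 M and 6.23 M counts (M, 1000000) in batch 1 and between 2.04 M and 8.28 M in batch 2. In 15 of 85 samples the RNA went against a label, by the sex-linked genes in 13 and by the cell type markers in 2. The remaining 70 are called kept samples here, and each kept EtOH group holds 1 sample labelled male. Each cell type carried its own markers: the 15 T cell markers summed to between 6914 and 14192 counts per M counts of the library (CPM) in kept T cells, the 15 B cell markers to between 19669 and 40040 CPM in B cells and the 15 monocyte markers to between 27196 and 52835 CPM in monocytes. RNA markers of other cells were present as well. The 15 B cell markers, 14 with medians above 1 CPM, summed to between 532 and 4899 CPM in kept PBS T cells (median 733.8 CPM). In kept CBM and EtOH T cells they summed to between 367.6 and 855.3 CPM and between 780.1 and 1006 CPM. The 15 T cell markers summed to between 367.8 and 586.7 CPM in kept PBS B cells. The 8 natural killer cell markers summed to between 645 and 5536 CPM in monocytes and between 306.7 and 6224 CPM in T cells, against 10.5 to 71.4 CPM in B cells, with medians above 1 CPM for 8 of 8 in monocytes and T cells and for 5 to 7 of 8 in B cells. The 10 neutrophil markers summed to between 4521 and 58447 CPM in monocytes, against 44.4 to 1473 CPM in T cells and 43.8 to 2780 CPM in B cells, with a median of 0 for Elane in PBS monocytes, in EtOH and PBS T cells and in EtOH and PBS B cells, and for Mpo in PBS B cells. Medians were above 1 CPM for 9 or 10 of these 10 in monocytes, 7 to 9 in T cells and 8 or 9 in B cells. The 6 cell cycle markers, all with medians above 1 CPM in both groups, summed to between 59.5 and 1612 CPM in CBM T cells, against 24.5 to 111.3 CPM in CBM B cells. The part of these other cells in the differences between cell types was not tested.

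Stretches of 6 promoters are shown because their genes carry the differences between monocytes and lymphocytes described further on. On the main scale 3 were higher in monocytes than in B cells (Uqcr11, Cox8a and, in PBS not with library totals, Sdhb). Of these, Uqcr11 alone also passed with library totals in every treatment. The other 3 were lower in monocytes than in T cells in the PBS group (Ndufs3, Atp5g2 and Atp5h). Each is 180 bases of RefSeq sequence of GRCm38.p6, 150 before and 30 after the annotated start, written 5′ to 3′ on the gene's strand. Capitals mark matches to the NRF1 motif GCATGCGC or the ETS/GABP motif CCGGAAGT on either strand.
Uqcr11, chr10:80406792-80406971, minus strand: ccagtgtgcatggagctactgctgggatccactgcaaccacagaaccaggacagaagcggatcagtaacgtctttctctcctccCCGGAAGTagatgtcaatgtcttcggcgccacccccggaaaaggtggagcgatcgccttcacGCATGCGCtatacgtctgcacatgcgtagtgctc
Cox8a, chr19:7217587-7217766, minus strand: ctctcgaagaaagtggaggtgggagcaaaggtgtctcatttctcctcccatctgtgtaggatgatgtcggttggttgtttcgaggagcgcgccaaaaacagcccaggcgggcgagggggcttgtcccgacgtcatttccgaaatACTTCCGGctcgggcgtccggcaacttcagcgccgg
Sdhb, chr4:140961121-140961300, plus strand: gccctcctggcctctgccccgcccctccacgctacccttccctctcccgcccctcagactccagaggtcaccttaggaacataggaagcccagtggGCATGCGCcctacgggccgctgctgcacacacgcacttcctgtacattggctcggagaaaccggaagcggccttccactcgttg
Ndufs3, chr2:90904692-90904871, minus strand: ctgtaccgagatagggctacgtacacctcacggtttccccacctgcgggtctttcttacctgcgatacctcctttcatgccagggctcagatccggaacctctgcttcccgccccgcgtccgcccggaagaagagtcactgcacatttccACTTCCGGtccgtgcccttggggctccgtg
Atp5g2, chr15:102671018-102671197, minus strand: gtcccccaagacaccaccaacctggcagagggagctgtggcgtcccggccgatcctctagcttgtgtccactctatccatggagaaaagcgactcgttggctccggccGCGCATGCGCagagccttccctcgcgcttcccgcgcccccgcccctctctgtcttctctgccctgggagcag
Atp5h, chr11:115419890-115420069, minus strand: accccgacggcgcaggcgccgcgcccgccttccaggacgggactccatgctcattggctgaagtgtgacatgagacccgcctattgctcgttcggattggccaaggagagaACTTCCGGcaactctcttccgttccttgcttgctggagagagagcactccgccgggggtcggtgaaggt

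NRF1 and GABP are transcription factors known to act on nuclear genes of respiration, and YY1 is a general factor whose sites often lie just after the start. Promoters were found for 69 of the 84 genes, as 74 windows of 300 bases (250 before and 50 after a start). The NRF1 letters stood in 10 of the 74 windows (13.5%), against 891 of 32851 windows of all promoters (2.71%). The ETS/GABP letters stood in 5 windows (6.76%), against 1277 of all (3.89%). The YY1 motif AAGATGGC, also read on both strands, stood in 10 windows (13.5%), against 903 of all (2.75%), and 8 of its 10 matches lay after the start, between bases 23 and 39. Any of the 3 stood in 24 windows (32.4%), against 2900 of all (8.83%). The NRF1 letters can overlap their own reverse complement, as they do in Atp5g2, and the motifs share with each other only letters at their ends. A match is a run of letters and not a site shown to be bound.

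Ranked per kilobase of annotated exon, 3 small subunits of complex IV and Ndufa1, an accessory subunit of complex I, stood highest. The order depends on the exon length annotated for each gene, which can exceed that of the RNA made in these cells. Cox6a1 averaged 365.6 CPM per kb over all samples, Cox8a 310.7 CPM per kb, Ndufa1 293.8 CPM per kb and Cox6b1 273.2 CPM per kb. Other small subunits of complex IV were lower on this scale, with 90.3 CPM per kb for Cox7b, 40 CPM per kb for Cox6c and 36.9 CPM per kb for Cox7c. Before division by length the order can differ. Cox6c, with 3567 annotated bases, averaged 142.7 CPM, and Ndufa1, with 419, averaged 123.1 CPM. In complex V the catalytic beta subunit Atp5b averaged 241 CPM per kb. In complex II, Sdhb, the iron-sulphur subunit, averaged 125.8 CPM per kb and Sdhd, a membrane anchor, 124.9 CPM per kb, while Sdha, the flavoprotein that oxidises succinate, averaged 95.8 CPM per kb. The matrix core protein of complex III, Uqcrc1, averaged 85.9 CPM per kb.

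The isoforms known from other tissues were at or near 0 in these cells. Cox4i2, an isoform known from lung, averaged 0.454 CPM per kb over all samples, beside 222.8 CPM per kb of Cox4i1. The muscle isoform Cox6a2 averaged 4.88 CPM per kb, beside 365.6 CPM per kb of Cox6a1, and the testis isoform Cox6b2 averaged 2.9 CPM per kb, beside 273.2 CPM per kb of Cox6b1. Cox7a1, known from heart and muscle, averaged 1.21 CPM per kb, beside 134.2 CPM per kb of Cox7a2 and 42.6 CPM per kb of Cox7a2l, which is known for its part in respiratory supercomplexes. In each set 1 widely expressed isoform stood highest. Cox8b and Cox8c averaged 0.243 and 0.785 CPM per kb, beside 310.7 CPM per kb of Cox8a, and Ndufa4l2 averaged 0.164 CPM per kb, beside 113.7 CPM per kb of Ndufa4. Ndufa4 bears a complex I name but is now known as a subunit of complex IV. Of the 3 genes that encode the same ring subunit c of ATP synthase, Atp5g3 averaged 95.3 CPM per kb, Atp5g2 13.4 CPM per kb and Atp5g1 9.07 CPM per kb. Before division by length they averaged 208, 22.4 and 44.5 CPM. The order of Atp5g2 and Atp5g1 thus rests on their annotated exon lengths, 1675 and 4912 bases, and is left undecided.

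Summed over each complex, T cells had the highest median CPM in PBS, and monocytes overlapped B cells. The complex I genes summed to a median of 2415 CPM in kept PBS monocytes (range 1798 to 2650 CPM), 3690 CPM in PBS T cells (range 2971 to 4590 CPM) and 2673 CPM in PBS B cells (range 2313 to 3380 CPM). The complex V genes summed to a median of 2258 CPM in PBS monocytes (range 1736 to 2753 CPM), 3724 CPM in PBS T cells (range 3452 to 4453 CPM) and 2771 CPM in PBS B cells (range 2595 to 3324 CPM). The complex IV genes summed to a median of 1654 CPM in PBS monocytes (range 1046 to 1708 CPM), 1831 CPM in PBS T cells (range 1388 to 2294 CPM) and 1416 CPM in PBS B cells (range 1169 to 1711 CPM). For complexes I and V, then, the PBS T cell samples lay above all PBS monocyte samples, and for complex V above all PBS B cell samples too, while the complex IV ranges overlapped. All 84 genes together took a median of 8073 CPM in PBS monocytes, 11604 CPM in PBS T cells and 8616 CPM in PBS B cells. These sums are shares of each library, and they are given without a test.

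**Figure D1:**
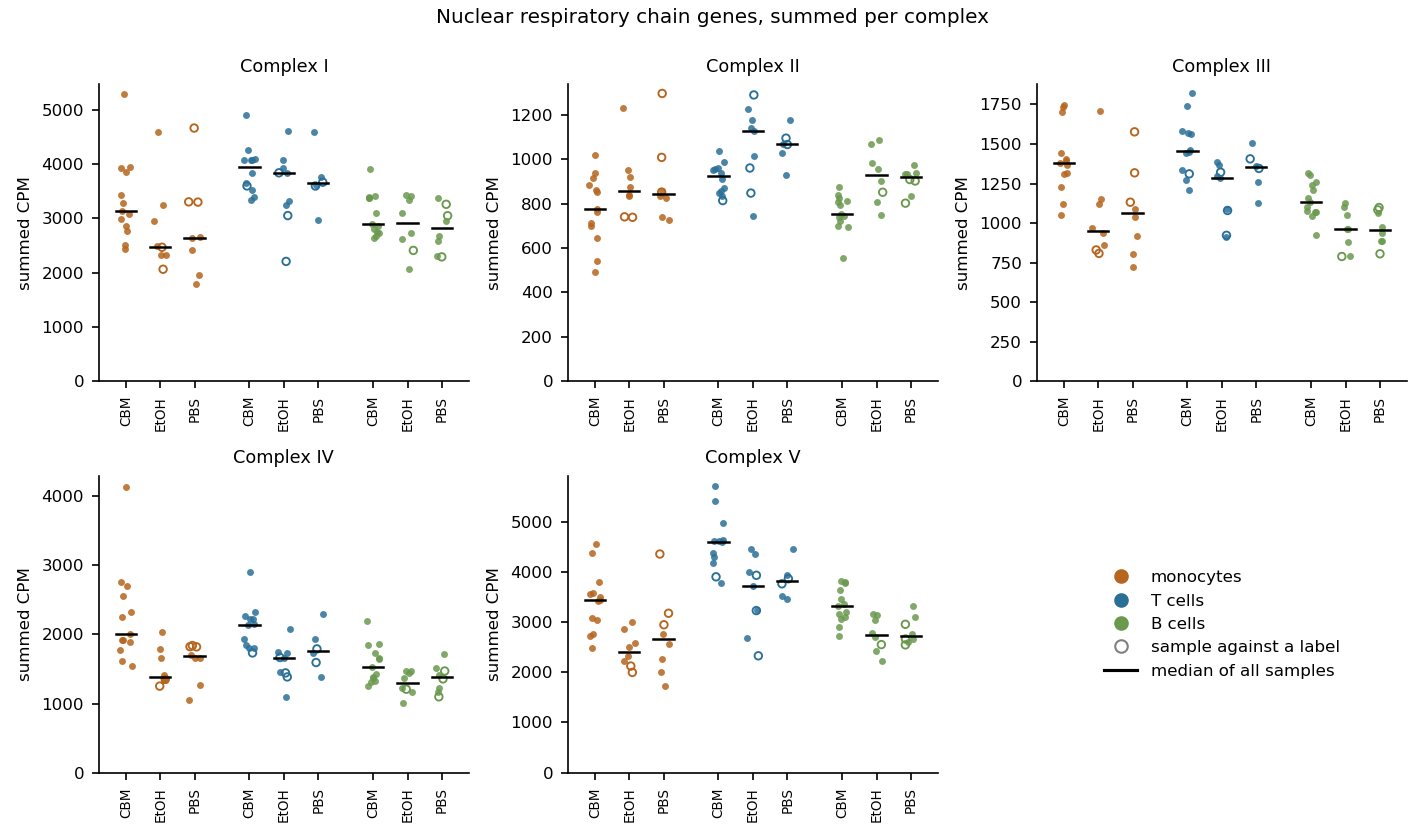
Summed CPM of the nuclear genes of complexes I to V (1 panel each, vertical axis in CPM) in every sample of monocytes, T cells and B cells under CBM, EtOH and PBS. Open circles are samples that go against a label and lines are medians of all samples; in complex V, T cells have the highest median in each treatment, with PBS T cell sums of 3452 to 4453 CPM in kept samples.

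Differences between cell types are given on 2 scales, because these give different answers for monocytes. The main one is edgeR's trimmed mean of M values (TMM), which centres the bulk of genes, and the other takes library totals alone. The TMM factors were lower in monocytes than in lymphocytes by their medians, with a PBS median of 0.851 in monocytes against 1.21 in T cells. Between T and B cells they differed less, though without overlap in EtOH, at 0.995 to 1.202 in T cells and 0.915 to 0.973 in B cells, and in PBS, at 1.011 to 1.055 in T cells and 0.955 to 1.001 in B cells. Without TMM, the median log2 difference of all genes was -0.29, -0.43 and -0.42 for monocytes minus B cells in CBM, EtOH and PBS, and -0.27, -0.63 and -0.51 for monocytes minus T cells. For T cells minus B cells it was -0.03, 0.17 and 0.09. A gene called higher in monocytes under TMM is thus higher relative to most genes, which is not always higher as a share of all counts. All log2 differences below are TMM values with their standard error (SE) unless library totals are named, and an adjusted p under 0.05 over all genes tested passed. The shares of all genes called are those of the main TMM fits. None is given for library totals or the other alternatives, so splits under those are not set against all genes.

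Many nuclear respiratory chain genes were higher in T cells than in B cells, and few lower, under both scales. In CBM, 52 of 78 genes tested were higher in T cells and 3 lower, beside 21.2% higher and 15.2% lower among all genes. In EtOH, 14 of 78 were higher and 1 lower, beside 14.7% and 15% of all genes, so that the higher share there was near that of all genes. That EtOH split was 26 and 1 by DESeq2 and 30 and 1 without the sex term, while without the filter on low counts edgeR called 0, with 6 at an unadjusted p under 0.05. The share of all genes at that unadjusted p is not given here. In PBS, 32 of 77 were higher and 1 lower, beside 20% and 20.4% of all genes. The median log2 difference of these genes was 0.41, 0.26 and 0.30 in CBM, EtOH and PBS, against -0.06, 0.06 and -0.01 for all genes. With library totals alone, 55 were higher and 3 lower in CBM, 35 and 1 in EtOH, and 42 and 1 in PBS. The 15 EtOH calls moved most with single samples, to 26 without EtOH T cell replicate 23, the sample of 0.33 M counts, and down to 3 without EtOH T cell replicate 53 or EtOH B cell replicate 54, 4 without EtOH T cell replicate 50, 5 without EtOH T cell replicate 38, and 8 and 9 without EtOH B cell replicates 42 and 39. In PBS, the 33 calls became 20 without T cell replicate 4 and 21 without T cell replicate 12 or B cell replicate 8.

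By complex, the higher genes in CBM were 22 of 37 tested in complex I, 2 of 4 in complex II, 6 of 8 in complex III, 10 of 13 in complex IV and 12 of 16 in complex V. In PBS they were 18 in complex I, 1 in complex II, 5 in complex III, 1 of 12 in complex IV and 7 in complex V. In EtOH, 9 of the 14 higher genes were of complex I, 2 each of complexes III and V and 1 of complex IV. The 13 genes that passed as higher in T cells in every treatment were Ndufa1, Ndufa4, Ndufa5, Ndufa8, Ndufa9, Ndufa10, Ndufc2, Ndufv3, Uqcr10, Uqcrh, Cox7b, Atp5h and Atp5j, and 12 of them, all but Uqcrh, also passed with DESeq2's size factors and with library totals. Without the filter on low counts, all 13 passed in CBM and in PBS but 0 in EtOH. The share of all genes that pass in every treatment is not given here, so the number of these genes is not read as a result.

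Atp5h, subunit d of the peripheral stalk of ATP synthase, lies at chr11:115415689-115419962 on the minus strand. It had 129, 214, 186 and 158 CPM in the 4 kept PBS T cell samples, against 82.1, 115, 101, 86 and 98.9 CPM in the 5 PBS B cell samples. Every T cell sample lay above every B cell sample. The log2 difference was 0.68 ± 0.12 (SE) in PBS (adjusted p = 0.00113), 0.94 ± 0.12 in CBM (adjusted p = 1.74e-07) and 0.63 ± 0.18 in EtOH (adjusted p = 0.0132). In CBM the ranges were 174.2 to 267.9 CPM in T cells and 88.2 to 165.3 CPM in B cells, again without overlap. Of its exon sequence, 19.9% of 50-base stretches also occur in other genes.

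Ndufv3, an accessory subunit of the NADH-binding module of complex I, lies at chr17:31520115-31531331 on the plus strand. It had 76, 118, 110 and 96.9 CPM in PBS T cells, against 38.8, 67.2, 59.1, 51.3 and 51.3 CPM in PBS B cells. The groups did not overlap in PBS or in CBM, where T cells ranged between 80.4 and 129.4 CPM and B cells between 45.9 and 72.2 CPM. In EtOH 1 T cell sample, the shallow replicate 23, lay at 33.5 CPM among the B cell samples. T cells minus B cells differed by 0.77 ± 0.13 on the log2 scale in PBS (adjusted p = 0.000942), 0.87 ± 0.11 in CBM (adjusted p = 1.71e-07) and 0.70 ± 0.19 in EtOH (adjusted p = 0.00985). Cox7b, a small membrane subunit of complex IV, differed by 0.64 ± 0.13 in PBS (adjusted p = 0.00261), with T cells between 103.5 and 176.5 CPM and B cells between 67.3 and 101.7 CPM. Uqcr10, a small subunit of complex III, differed by 0.68 ± 0.15 in PBS (adjusted p = 0.00429), with T cells between 98.9 and 167.2 CPM and B cells between 62.3 and 90.7 CPM. Neither gene's PBS groups overlapped.

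In complex II the anchor Sdhc alone passed as higher in T cells in PBS. It had 74.5, 85.9, 66.5 and 80.6 CPM in PBS T cells, against 47.1, 47.9, 44.9, 35.7 and 43.1 CPM in PBS B cells, which did not overlap (log2 difference 0.71 ± 0.13, adjusted p = 0.00106). It passed in CBM as well (0.54 ± 0.13, adjusted p = 0.00115) and not in EtOH (0.34, adjusted p = 0.0985). Its partner anchor Sdhd and the iron-sulphur subunit Sdhb passed in no treatment, with log2 differences of 0.29, 0.11 and 0.10 for Sdhd and 0.07, -0.13 and -0.02 for Sdhb in CBM, EtOH and PBS.

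Against this direction stood Ndufs8, a core iron-sulphur subunit of complex I (chr19:3908863-3912774, minus strand). It had 81.9, 104, 94.9 and 83 CPM in PBS T cells, against 130, 168, 147, 98.9 and 119 CPM in PBS B cells. The groups overlapped by 1 B cell sample at 98.9 CPM. The log2 difference was -0.66 ± 0.11 in PBS (adjusted p = 0.00084), -0.67 ± 0.17 in EtOH (adjusted p = 0.00543) and -0.39 ± 0.13 in CBM (adjusted p = 0.0187), and the gene passed as lower under each of the 3 scalings, though without the filter it passed in PBS alone. Atp5s, coupling factor B, was lower in T cells in CBM (-0.58 ± 0.17, adjusted p = 0.00871), with the same log2 difference but adjusted p = 0.0946 in PBS.

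**Figure D2:**
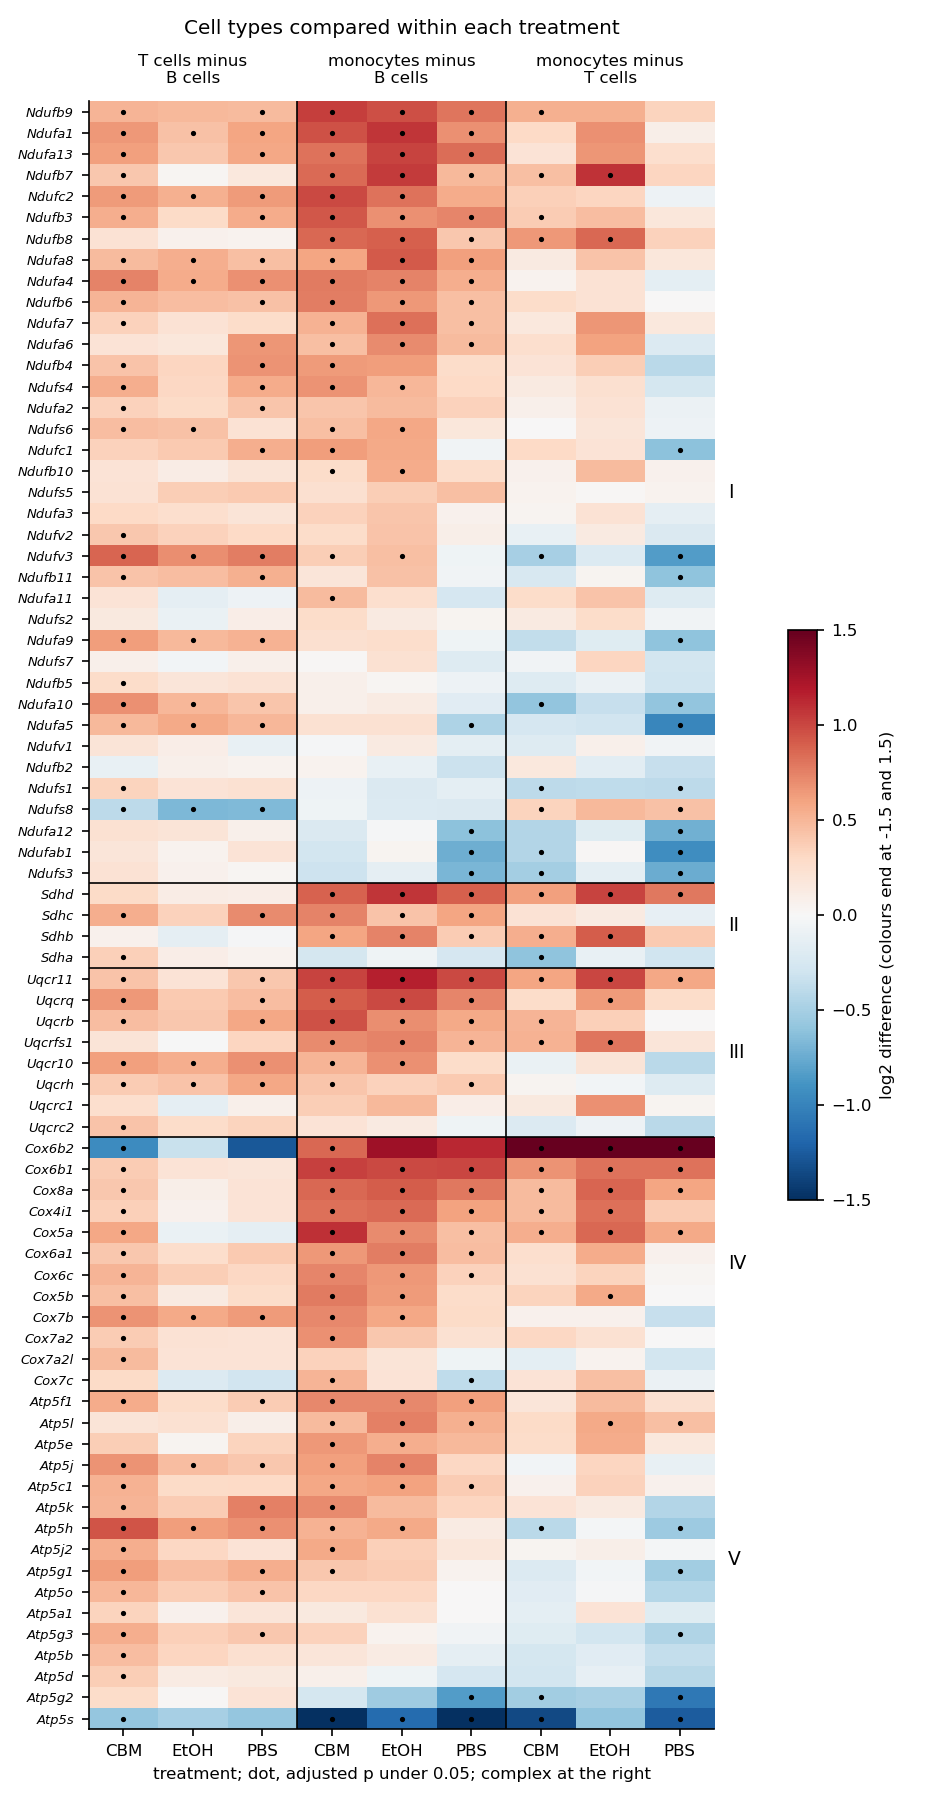
Log2 difference of each nuclear respiratory chain gene (rows, grouped by complex I to V) for T cells minus B cells, monocytes minus B cells and monocytes minus T cells in CBM, EtOH and PBS (columns), on the TMM scale, with colours held at the ends of the scale bar. Dots mark an adjusted p under 0.05, and most dots in the T minus B columns are on the higher side (52 of 78 genes in CBM). With library totals many calls in the monocyte columns are lost or replaced by lower ones. The split is then 5 higher and 29 lower for monocytes minus B cells in PBS, and 0 and 29 for monocytes minus T cells in EtOH. Of the dots, 12 change direction and no longer pass.

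Relative to most genes, many nuclear respiratory chain genes were higher in monocytes than in B cells, while as a share of all counts the direction of the split differed between treatments. Under TMM, 48 of 78 genes passed as higher and 1 as lower in CBM, beside 21.2% and 26.3% of all genes. In EtOH, 38 of 78 were higher and 2 lower, beside 27% and 23.1% of all genes, and in PBS 28 of 77 were higher and 7 lower, beside 30.2% and 28% of all genes. The higher share in PBS was thus near that of all genes. The PBS split was 9 and 5 without the filter on low counts and 36 and 3 with all samples. With library totals, the split was 28 higher and 10 lower in CBM, 9 and 10 in EtOH, and 5 and 29 in PBS. The median log2 difference of these genes was 0.51, 0.49 and 0.27 under TMM and 0.21, 0.04 and -0.15 with library totals in CBM, EtOH and PBS. Of the 27 genes higher and the 1 lower under TMM in all 3 treatments, 4 and 1 also passed under library totals in all 3: Uqcr11, Uqcrq, Cox6b1 and Sdhd were higher in monocytes under every scaling, and Atp5s lower. Without the filter on low counts, 9 of the 27 and Atp5s passed in all 3 treatments. How many of all genes pass in all 3 treatments, or under every scaling, is not given here, so these numbers are not read as a result. Across the tested genes, Spearman's rho of the log2 difference with exon length was -0.38 in CBM (78 genes), -0.35 in EtOH (78 genes) and -0.39 in PBS (77 genes), so that shorter genes stood higher in monocytes, against -0.07, -0.15 and -0.02 over all genes. These genes share the same libraries, and no p is given.

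Uqcr11 encodes a small subunit of complex III, chr10:80402997-80406830, minus strand. It had 85.1, 78.8, 84.9, 73.6 and 59.6 CPM in the 5 kept PBS monocyte samples, against 52.4, 64.3, 56, 38.1 and 50.5 CPM in the 5 PBS B cell samples. The groups overlapped by 1 sample on each side. The log2 difference was 0.99 ± 0.14 in PBS (adjusted p = 8.2e-05), 1.01 ± 0.19 in CBM (adjusted p = 4.91e-05) and 1.17 ± 0.29 in EtOH (adjusted p = 0.00291), and with library totals 0.57, 0.71 and 0.70. Uqcrq, another small subunit of complex III (chr11:53427922-53430831, minus strand), differed by 0.73 ± 0.14 in PBS (adjusted p = 0.000574) and by 0.31 with library totals.

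Cox6b1, a small subunit of complex IV on the side of the intermembrane space (chr7:30616861-30626151, minus strand), had 215, 223, 203, 166 and 126 CPM in PBS monocytes, against 106, 172, 138, 99.9 and 119 CPM in PBS B cells. The groups overlapped. Monocytes minus B cells gave a log2 difference of 1.00 ± 0.16 in PBS (adjusted p = 0.000159), 1.03 ± 0.16 in CBM (adjusted p = 3.88e-06) and 0.99 ± 0.19 in EtOH (adjusted p = 0.00031), and with library totals 0.58, 0.73 and 0.55. Cox8a, another small subunit of complex IV, did not overlap in EtOH, where monocytes ranged between 155.3 and 191.7 CPM and B cells between 94.2 and 148.6 CPM (log2 difference 0.91 ± 0.14, adjusted p = 6.02e-05). Cox5a, a subunit on the matrix side of complex IV, had its largest difference in CBM (1.10 ± 0.15, adjusted p = 3.17e-07), with monocytes between 144.7 and 321.8 CPM and B cells between 97 and 155 CPM.

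In monocytes the subunits of complex II differed in where they stood relative to lymphocytes. Sdhd (chr9:50596357-50603812, minus strand) had 195, 193, 201, 181 and 149 CPM in PBS monocytes, against 117, 163, 131, 127 and 127 CPM in PBS B cells, with 1 monocyte sample inside the B cell range. Its log2 difference was 0.90 ± 0.13 in PBS (adjusted p = 6.71e-05), 0.88 ± 0.19 in CBM (adjusted p = 0.000198) and 1.07 ± 0.21 in EtOH (adjusted p = 0.000477). Sdha (chr13:74322254-74350280, minus strand) had 316, 290, 285, 281 and 283 CPM in PBS monocytes, against 508, 533, 506 and 510 CPM in PBS T cells and 508, 426, 474, 420 and 500 CPM in PBS B cells. All monocyte samples lay below all lymphocyte samples. Under TMM the difference from B cells did not pass in any treatment (-0.26, -0.06 and -0.25 in CBM, EtOH and PBS), and with library totals it passed as lower in all 3 (-0.58, -0.49 and -0.67).

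The ratio of 2 subunits of complex II within a sample does not depend on the scaling. The annotated exons have 4126 bases in Sdha, 3250 in Sdhc, 2239 in Sdhb and 1231 in Sdhd. The part of exon length in the ratios was not tested. Sdhd per Sdha was 0.525 to 0.706 in kept PBS monocytes (median 0.642), against 0.239 to 0.352 in PBS T cells (median 0.309) and 0.23 to 0.383 in PBS B cells (median 0.277). In CBM it was 0.483 to 1.09 in monocytes, against 0.23 to 0.459 in T cells and 0.251 to 0.542 in B cells, and in EtOH 0.373 to 0.863, against 0.258 to 0.338 and 0.235 to 0.365 in the same cell types. Monocytes lay above both lymphocytes without overlap in PBS and EtOH, and in CBM they lay above T cells and overlapped B cells. Sdhb per Sdha was 0.818 to 1.09 in PBS monocytes, against 0.444 to 0.689 in T cells and 0.518 to 0.797 in B cells, again without overlap. Sdhc per Sdha did overlap with T cells, at 0.139 to 0.198 in PBS monocytes, against 0.131 to 0.161 in T cells and 0.085 to 0.112 in B cells, and at 0.136 to 0.205 in EtOH monocytes, against 0.124 to 0.176 in T cells and 0.102 to 0.128 in B cells. In CBM it was 0.156 to 0.934 in monocytes, against 0.121 to 0.187 in T cells and 0.102 to 0.186 in B cells, with overlap. CBM monocyte replicates 10 and 11 had the lowest Sdha of their group, 91.7 and 83.6 CPM beside 227 to 317 CPM in the other 11, and CBM B cell replicate 10 the lowest of its group with 191 CPM. The Sdhb per Sdha ratio reached its highest in these samples, 3.18 in CBM monocytes and 1.19 in CBM B cells. With the samples that go against a label, Sdhb per Sdha in PBS monocytes reached down to 0.576 by the sample labelled PBS monocyte replicate 17, and EtOH T cells reached up to 0.888 by the sample labelled EtOH T cell replicate 29.

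**Figure D3:**
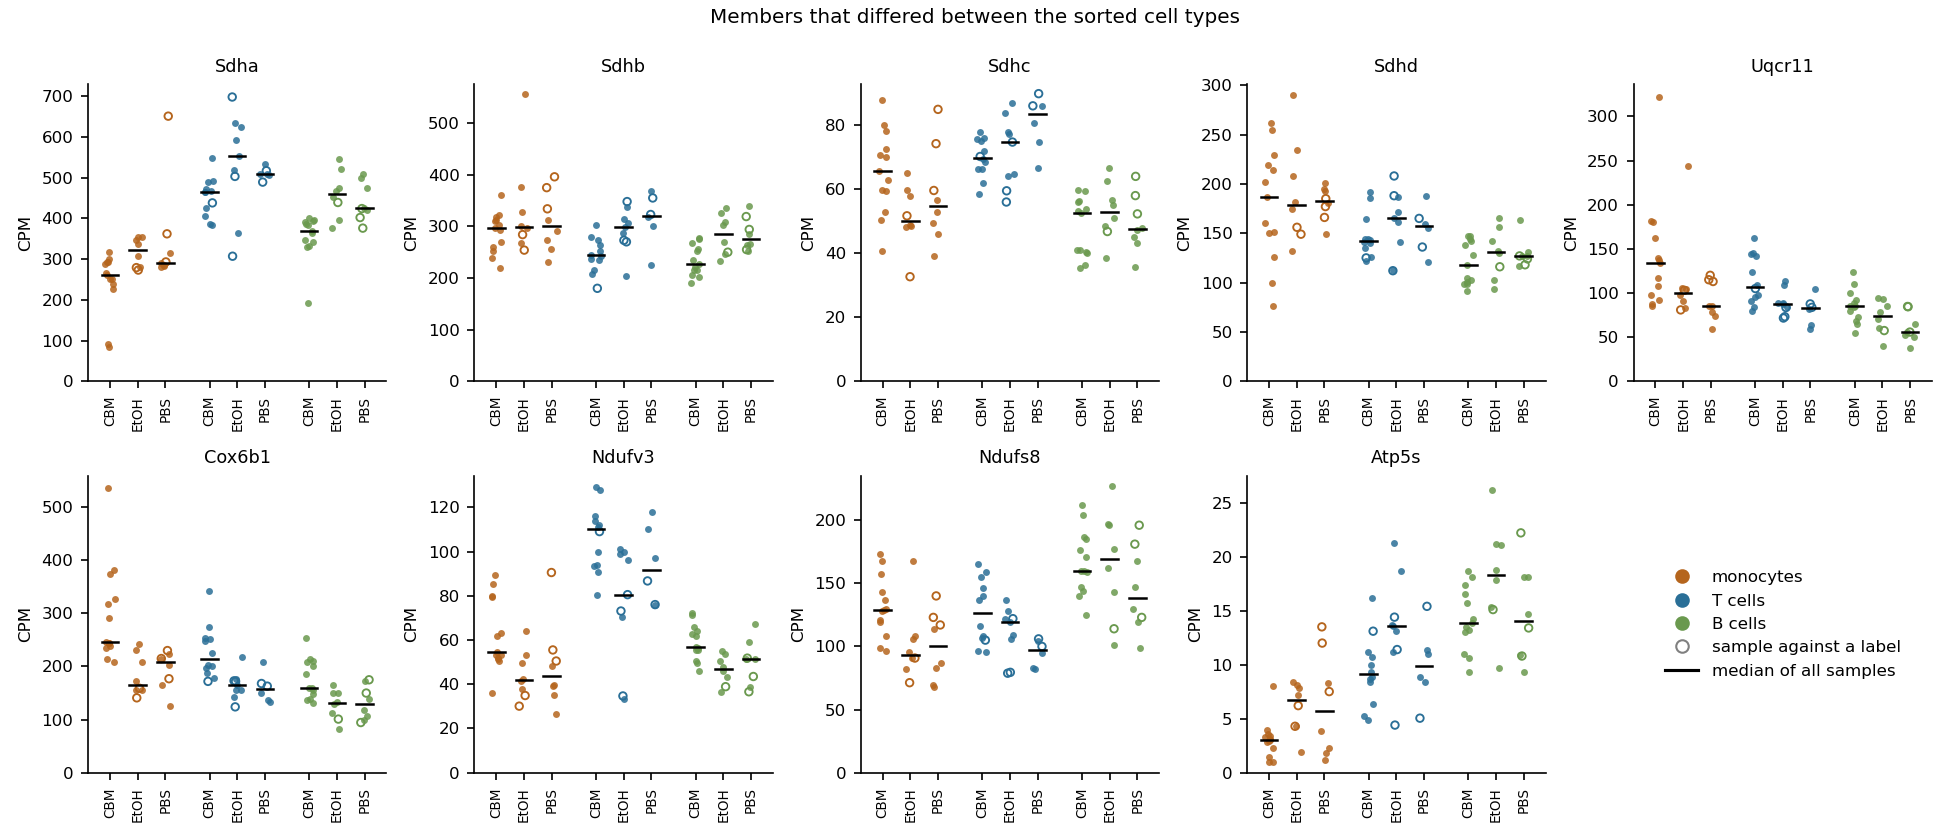
CPM of 9 genes (1 panel each) in every sample of monocytes, T cells and B cells under CBM, EtOH and PBS; open circles are samples that go against a label and lines are medians of all samples. Sdha lies lowest in monocytes (281 to 316 CPM in kept PBS samples), while Sdhd, Uqcr11 and Cox6b1 have higher medians in monocytes than in B cells in each treatment.

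Atp5s (chr12:69724950-69744660, plus strand) was the 1 gene lower in monocytes than in B cells in all 3 treatments under TMM. It had 3.83, 1.85, 2.31, 1.14 and 8.29 CPM in PBS monocytes, against 10.9, 9.29, 14.7, 18.1 and 18.1 CPM in PBS B cells. The groups did not overlap in PBS, in CBM (0.949 to 8 CPM in monocytes and 9.29 to 18.7 CPM in B cells) or in EtOH (1.93 to 8.42 CPM and 9.73 to 26.2 CPM). The log2 difference was -1.81 ± 0.41 in PBS (adjusted p = 0.00218), -1.92 ± 0.25 in CBM (adjusted p = 1.3e-07) and -1.16 ± 0.31 in EtOH (adjusted p = 0.00589). In PBS, Ndufs3, a core subunit of complex I (chr2:90894634-90904827, minus strand), was lower as well, with 30.9 to 43.6 CPM in monocytes against 68.9 to 93.7 CPM in B cells (-0.69 ± 0.14, adjusted p = 0.000806). The same held for Ndufab1, the mitochondrial acyl carrier protein, with 15 to 22.1 CPM in monocytes against 32.2 to 51.7 CPM in B cells (-0.73 ± 0.18, adjusted p = 0.00341). Neither pair of groups overlapped. Ndufs3 overlaps Kbtbd4 on the other strand, and reads of such pairs cannot be told apart without strand, which the labels do not give.

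Between monocytes and T cells the direction of most calls depended on the scale in CBM and EtOH, while in PBS more genes were lower than higher on both scales. Under TMM, 15 of 78 genes passed as higher in monocytes and 10 as lower in CBM, beside 19.9% and 29.7% of all genes. In EtOH, 14 passed, all higher, beside 21.7% higher and 15.3% lower among all genes, and in PBS 8 were higher and 15 lower, beside 28.8% and 26.2% of all genes. The higher share was near that of all genes in CBM and EtOH and below it in PBS. The lower share was below that of all genes in each treatment, PBS included. With library totals, 4 were higher and 27 lower in CBM, 29 passed in EtOH, all lower, and 1 was higher and 54 lower in PBS. On that scale the median of all genes also lay lower in monocytes, and the share of all genes called is not given. The library-total counts are therefore not read as particular to these genes. The TMM split also moved with the handling of samples and of low counts. In CBM it was 21 higher and 5 lower by DESeq2, 25 and 4 with DESeq2's size factors in edgeR, 15 and 1 without the filter on low counts and 19 and 8 without the sex term. In EtOH it was 14 and 3 by DESeq2, 13 and 2 with size factors, 15 and 2 without the sex term, 12 and 2 with all samples and 1 and 0 without the filter, and the 14 calls fell to 9 without EtOH T cell replicate 38 or 41. In PBS it was 9 and 15 with size factors, 2 and 10 without the filter, 4 and 15 without the sex term, 6 and 4 with all samples, and the 23 calls fell to 13 without PBS T cell replicate 4 or PBS monocyte replicate 6.

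The genes higher in monocytes than in T cells under TMM in all 3 treatments were Sdhd, Uqcr11, Cox5a, Cox6b1, Cox6b2 and Cox8a, and none of the 6 passed with library totals in all 3. Without the filter on low counts, the 6 passed in CBM, 2 of them in PBS and 0 in EtOH. Again the share of all genes that pass in every treatment is not given, and the number 6 is not read as a result. Sdhd differed by 0.79 ± 0.16 in PBS (adjusted p = 0.0012), by 1.01 ± 0.23 in EtOH (adjusted p = 0.00325) and by 0.61 in CBM (adjusted p = 0.00547). Cox6b2, at low counts, ranged between 0.791 and 12.4 CPM in CBM monocytes and between 0.889 and 4 CPM in CBM T cells, which overlapped (1.80 ± 0.35, adjusted p = 7.46e-05). Lower in monocytes under TMM in PBS were 10 genes of complex I and 5 of complex V, together a smaller share than among all genes. Ndufa5, an accessory subunit of complex I, differed by -0.98 ± 0.18 (adjusted p = 0.000678), Ndufv3 by -0.84 ± 0.17 (adjusted p = 0.00113) and Ndufs3 by -0.74 ± 0.17 (adjusted p = 0.0029). Atp5g2 differed by -1.07 (adjusted p = 0.0032) and Atp5h by -0.55 (adjusted p = 0.0252). Atp5h had 89.6, 82.9, 102, 69.5 and 46 CPM in PBS monocytes, all below the 129 to 214 CPM of PBS T cells. In EtOH neither Ndufs3 (-0.15) nor Atp5h (-0.03) passed.

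The share of each complex in the RNA of the chain does not depend on the scaling either, and the part of exon length in it was not tested. Complex IV took 17.3 to 20.5% of the RNA of the 84 genes in kept PBS monocytes, against 14.1 to 16.4% in PBS T cells and 14 to 16.4% in PBS B cells. In EtOH it took 16.4 to 18% in monocytes, against 12.7 to 15.2% in T cells and 14.3 to 15.1% in B cells. Monocytes lay above both lymphocytes without overlap in these 2 treatments, and overlapped them in CBM, where the ranges were 17.6 to 26.7%, 15.4 to 17.9% and 14.8 to 19.7% in monocytes, T cells and B cells. Complex V took a lower share in monocytes in PBS, 28 to 30.6%, against 31.4 to 35% in T cells and 30.8 to 33.2% in B cells, without overlap. The complex V ranges overlapped in EtOH, at 23 to 31.8% in monocytes, 30.9 to 35.3% in T cells and 29.7 to 32.8% in B cells, and in CBM, at 24.5 to 35.3%, 34 to 37.1% and 29.6 to 34.9% in the same order. Some ends were set by single samples. EtOH monocyte replicate 52 gave the 23%, CBM monocyte replicate 11 the 26.7% of complex IV, and CBM B cell replicate 10 the 19.7% of complex IV.

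Subunits of the chain encoded by the mitochondrial genome stood lower in monocytes. The ratio of the nuclear genes to the counts of the mitochondrially encoded genes was 2.21 to 3.66 in kept PBS monocytes (median 3.22). It was 1.2 to 1.6 in PBS T cells (median 1.33) and 1.05 to 1.21 in PBS B cells (median 1.14). In PBS monocytes mt-Co2, mt-Atp6 and mt-Co3 had medians of 9.15, 10 and 18.4 CPM, beside 738.2 CPM of mt-Co1, so the divisor is uneven. The ratio compares cell types and does not measure all mitochondrial RNA of a cell. Monocytes lay above both lymphocytes in PBS and, with 3.02 to 6.56 against 1.51 to 2.16 and 1 to 1.96, in EtOH. The value of 6.56 was that of EtOH monocyte replicate 52. In CBM, monocyte replicates 10 (1.5, the lowest) and 11 lay inside the T cell range of 0.928 to 1.73. All 10 mitochondrially encoded genes tested were lower in monocytes than in B cells in each treatment, with median log2 differences of -0.95, -0.96 and -1.10 in CBM, EtOH and PBS. Between T and B cells their medians were -0.08, -0.15 and 0.05. mt-Co1, the catalytic subunit of complex IV, ranged between 772.3 and 1351 CPM in CBM monocytes and between 2130 and 3290 CPM in CBM B cells, which did not overlap (-0.89 ± 0.12, adjusted p = 4.85e-07).

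Genes that serve the chain were read from lists chosen with results of these data known. In CBM, EtOH and PBS, 26.3%, 23.1% and 28% of all genes were lower in monocytes than in B cells and 21.2%, 27% and 30.2% higher. Beside that, 8, 7 and 8 of 14 regulators were lower, and 1 was higher in CBM. Tfam, which packages mitochondrial DNA and helps to start its transcription, ranged between 17.1 and 23.2 CPM in PBS monocytes and between 72.7 and 162.6 CPM in PBS B cells (-2.17). In CBM it differed by -1.49 ± 0.12 (adjusted p = 1.78e-11). Polrmt, the mitochondrial RNA polymerase, differed by -1.36, -1.37 and -1.48 in CBM, EtOH and PBS, and Nrf1 by -0.77, -0.46 and -0.77. Assembly factors of complex I were lower in 5, 4 and 7 of 15, which in CBM and EtOH is near the share of all genes. Glycolysis genes stood higher, with 12 of 13 higher in monocytes than in B cells in each treatment (medians 1.5, 1.34 and 1.34). Between T and B cells, where 21.2%, 14.7% and 20% of all genes were higher in T cells, glycolysis had 8, 6 and 6 of 13 genes higher, with 1 lower in PBS, and the cytosolic ribosome had 43 of 83, 27 of 83 and 65 of 81 higher in CBM, EtOH and PBS.

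After ethanol before birth, no nuclear respiratory chain gene passed the edgeR test in any cell type. With all samples, 0 of 77 genes in monocytes, 0 of 77 in T cells and 0 of 78 in B cells passed, beside 0% of all genes in each. An unadjusted p under 0.05 was reached by 0, 5 and 2 of them, and DESeq2 called 0 in each. The median log2 differences of EtOH minus PBS were -0.03 in monocytes, -0.08 in T cells and -0.10 in B cells. For 75 of 77, 76 of 77 and 76 of 78 genes the 95% interval lay inside a 2-fold change in either direction. With the kept samples, 0 of 77, 0 of 78 and 0 of 78 passed, beside 0.0709%, 0.823% and 4.04% of all genes, with 2, 7 and 15 at an unadjusted p under 0.05. DESeq2 then called 0 in monocytes, 1 in T cells and 3 in B cells. The shares of all genes at an unadjusted p under 0.05 or called by DESeq2 are not given here. Counts of both kinds are therefore not read as a result. Leaving out 1 sample at a time, edgeR called 3 in B cells without PBS B cell replicate 2 and 2 without EtOH B cell replicate 30. The lowest adjusted p was 0.396, 0.126 and 0.0602. The intervals of 68 of 77 genes in monocytes, 67 of 78 in T cells and 75 of 78 in B cells still lay inside 2-fold.

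The gene with the lowest p in T cells was Atp5g1, a gene for ring subunit c, with 42.2 to 58.5 CPM in 6 kept EtOH samples, against 50.6, 61.4, 70 and 72.3 CPM in 4 PBS samples. The groups overlapped (-0.64 ± 0.18, adjusted p = 0.126, passing by DESeq2), and with all samples the difference was -0.45 ± 0.14 (adjusted p = 0.493). In B cells it was Cox7a2l, with 41.3 to 56.1 CPM (median 52) in 7 EtOH samples, against 52.2, 59.5, 64.1, 67.1 and 82.9 CPM in 5 PBS samples, which overlapped (-0.53 ± 0.15, adjusted p = 0.0602, passing by DESeq2). In monocytes it was Ndufab1, with 27.6 to 69.7 CPM in 6 EtOH samples, against 15, 16.1, 21.4, 21.9 and 22.1 CPM in 5 PBS samples. These groups did not overlap (0.86 ± 0.35, adjusted p = 0.396), and EtOH monocyte replicate 52 lay furthest up. Ndufs1, the largest subunit of complex I, was at 174 to 219 CPM in kept EtOH T cells and 142 to 160 CPM in PBS T cells, and Ndufs8 at 106 to 137 CPM and 81.9 to 104 CPM. Neither pair overlapped in CPM, with adjusted p = 0.669 and 0.665 on the TMM scale. The share of all genes that separate in such small groups is not given here. The lack of overlap of Ndufab1, Ndufs1 and Ndufs8 is therefore not read as a result. Erythroid RNA differed between the T cell groups too: its markers (7 of 8 in the table) summed to between 383.9 and 2220 CPM in EtOH T cells (median 1321 CPM, Hba-a2 at a median of 0) and between 669.4 and 6883 CPM in PBS T cells (median 5130 CPM), with overlap. The 6 cell cycle markers, all with medians above 1 CPM, summed to between 129.5 and 2106 CPM in kept EtOH T cells (median 260.5 CPM), against 34.3 to 100.1 CPM in PBS T cells (median 60.8 CPM), without overlap. The part of this RNA in the differences was not tested.

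Cox6a2, the muscle isoform of complex IV (chr7:128205435-128206387, minus strand), was the 1 gene whose kept EtOH and PBS samples of B cells did not overlap. It had 7.75, 2.21, 21.2, 7.64, 10.2, 7.15 and 2.3 CPM in 7 EtOH samples, from 14, 5, 100, 9, 27, 37 and 12 counts, against 2.03, 1.19, 0.555, 0.777 and 0 CPM in 5 PBS samples, from 8, 5, 2, 3 and 0 counts. This log2 difference did not pass in edgeR (2.53 ± 0.74, adjusted p = 0.0637, passing by DESeq2). The share of all genes that separate in groups of this size is not given here, so the lack of overlap is not read as a result. The 3 PBS B cell samples that go against their sex label had 8.63, 8.91 and 5.54 CPM and the EtOH one 0 CPM, and with them the difference was 0.68 ± 0.76 (adjusted p = 0.822). Itgad, an integrin gene on the other strand that overlaps it, had 2.68 to 6.79 CPM in the same EtOH samples, against 0 to 1.43 CPM in the PBS samples, and without strand the reads of the pair cannot be told apart.

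**Figure D4:**
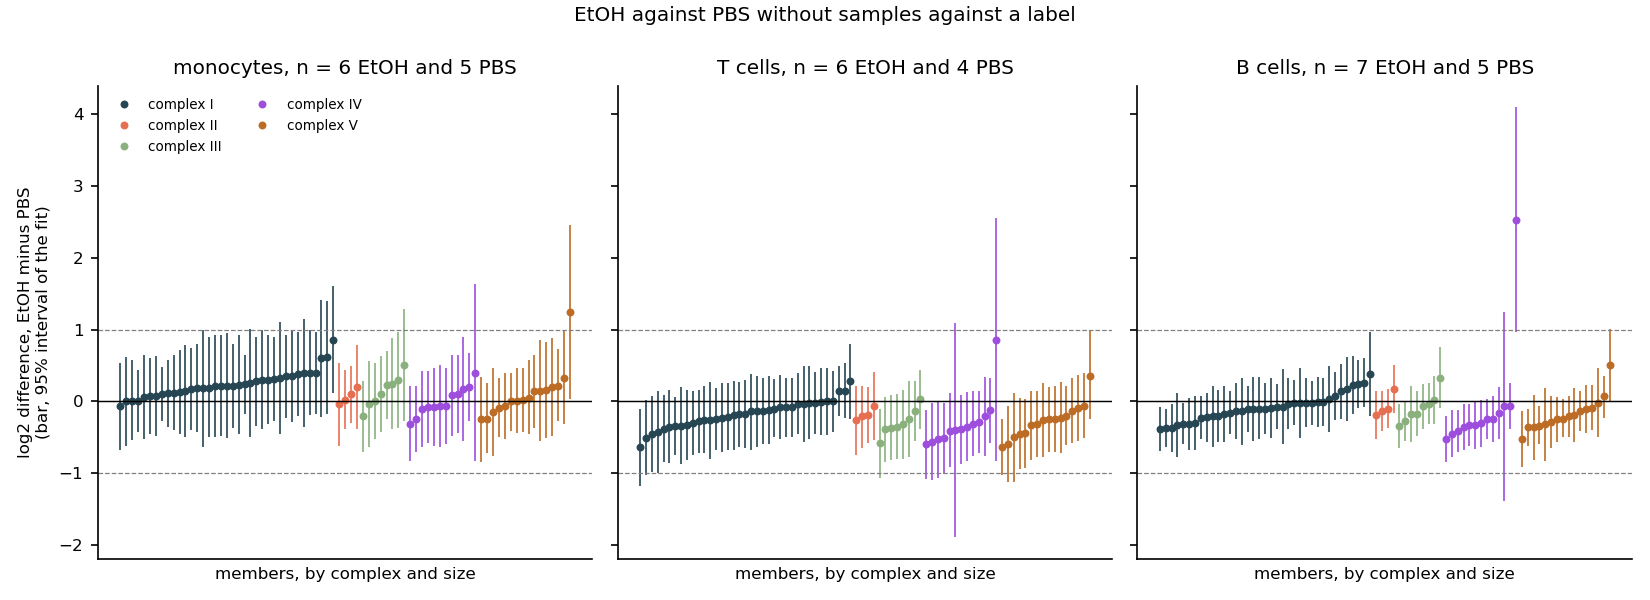
Log2 difference of EtOH minus PBS (vertical axis) with its 95% interval for the nuclear respiratory chain genes in kept monocyte samples (6 EtOH and 5 PBS), T cell samples (6 and 4) and B cell samples (7 and 5). Dashed lines mark a 2-fold change; 0 genes passed in any panel, and the intervals of 68, 67 and 75 genes lie between the lines.

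CBM and PBS differ in batch as well as in treatment, so the 2 cannot be told apart. Complex V gave 4 of the 10 genes higher in CBM in monocytes, 3 of the 5 in T cells and 4 of the 7 in B cells. Of 78 genes tested in each, 10 passed in monocytes, all higher in CBM than in PBS, beside 10.4% higher and 13.6% lower among all genes. In T cells 5 were higher and 22 lower, beside 24.4% and 23% of all genes, and in B cells 7 were higher and 5 lower, beside 18.7% and 16.8% of all genes. The higher share in monocytes and the lower share in T cells were thus near those of all genes. With library totals 18 passed in monocytes, all higher, and the split was 19 higher and 2 lower in T cells and 22 and 3 in B cells, so that the direction of the T cell split flips with the scaling. Library totals alone put the median of all genes at 0.07 in monocytes, 0.26 in T cells and 0.20 in B cells. The T cell split was 6 and 12 by DESeq2, 5 and 12 with its size factors in edgeR and 7 and 12 without the filter, and the B cell split was 11 and 5 by DESeq2, 9 and 5 with its size factors and 4 and 8 without samples against a label, while 6 genes passed there without the filter, all higher. The ribosome moved with these groups: 72 of 82 cytosolic ribosome genes were higher in CBM monocytes, 61 of 83 in CBM T cells and 70 of 82 in CBM B cells. Markers of other cells moved as well. In kept T cells, the 8 natural killer cell markers summed to between 336 and 6224 CPM in CBM (median 3804), against 625.8 to 1138 CPM in PBS (median 823.8), and the 15 monocyte markers, of which 13 had medians above 1 CPM in each group, to between 510.6 and 3761 CPM in CBM (median 1543), against 411.5 to 775.6 CPM in PBS (median 620.6). The 6 cell cycle markers summed to between 59.5 and 1612 CPM in CBM T cells (median 454.9), against 34.3 to 100.1 CPM in PBS T cells (median 60.8), and to between 32.1 and 244.8 CPM in CBM monocytes (median 123), against 18.3 to 69.4 CPM in PBS monocytes (median 33.1). The 6 platelet markers, all with medians above 1 CPM, summed to between 55.8 and 841.8 CPM in CBM monocytes (median 184.2), against 306.8 to 2057 CPM in PBS monocytes (median 536.2). All these ranges overlapped, and the part of the ribosome or of other cells was not tested.

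Atp5g2 was higher in all 3 cell types, with no overlap in any. It ranged between 12.6 and 40.1 CPM in 13 CBM monocyte samples (median 24.8) and between 5.76 and 11.6 CPM in 8 PBS samples (median 7.7), a log2 difference of 1.59 ± 0.22 (adjusted p = 1.77e-05). In T cells it ranged between 29.3 and 51.1 CPM in CBM and between 12.6 and 24.3 CPM in PBS (0.92 ± 0.19, adjusted p = 0.000666), and in B cells between 24.8 and 46.3 CPM in CBM and between 11.2 and 23.8 CPM in PBS (1.04 ± 0.17, adjusted p = 3e-05). The other genes for ring subunit c passed in no cell type, Atp5g1 with 0.27, -0.24 and -0.10 and Atp5g3 with 0.30, -0.23 and -0.12 in monocytes, T cells and B cells. Of Atp5g2's exon sequence, 38.3% of 50-base stretches occur in other genes, among them the pseudogenes Gm10175 and Gm10231, and its count is uncertain to that extent.

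Atp5e, the epsilon subunit of ATP synthase, ranged between 90.2 and 425.6 CPM in CBM monocytes and between 29.4 and 75.5 CPM in PBS monocytes, which did not overlap (1.25 ± 0.32, adjusted p = 0.00617). It was higher in T cells (0.66 ± 0.16, adjusted p = 0.00231) and B cells (0.85 ± 0.16, adjusted p = 0.000253) as well. Ndufa6, an accessory subunit of complex I, was higher by 1.24 ± 0.24 in monocytes (adjusted p = 0.00063), 0.47 ± 0.15 in T cells (adjusted p = 0.0168) and 1.02 ± 0.15 in B cells (adjusted p = 1.68e-05). Its B cell groups did not overlap, at 91.6 to 196.1 CPM in CBM and 35 to 77.9 CPM in PBS. On the lower side, Sdhb fell in CBM T cells by 0.64 ± 0.12 on the log2 scale (adjusted p = 0.000228) and in B cells by 0.48 ± 0.11 (adjusted p = 0.00166). It ranged between 180.3 and 303.2 CPM in CBM T cells and between 225.2 and 367.8 CPM in PBS T cells, with overlap. Sdhb and Ndufs3 kept their lower call in T and B cells with library totals, at -0.39 and -0.28 in T cells and -0.29 and -0.32 in B cells. In T cells all 4 genes of complex II were lower under TMM, and with library totals Sdhb alone passed, while Sdha (-0.16), Sdhc (-0.21) and Sdhd (-0.09) did not.

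**Figure D5:**
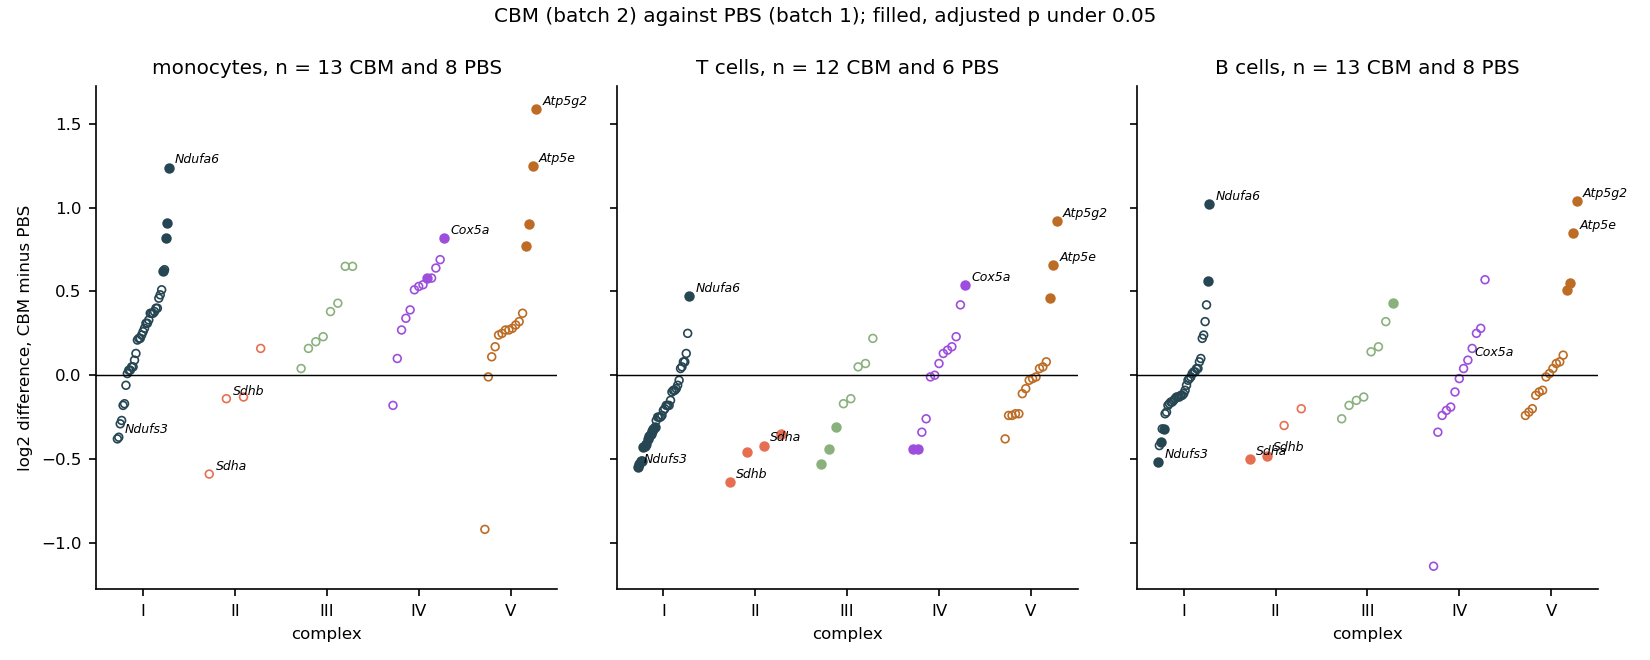
Log2 difference of CBM minus PBS on the TMM scale (vertical axis) for each nuclear respiratory chain gene by complex, in monocytes (13 CBM and 8 PBS samples), T cells (12 and 6) and B cells (13 and 8); filled points have an adjusted p under 0.05. In T cells 5 genes are higher and 22 lower on this scale, and the direction flips with library totals, where 19 are higher and 2 lower.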

How the data were processed

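RNA of monocytes, T cells and B cells sorted from mouse blood was deposited by the authors as raw read counts per gene for 124 libraries. Library kits were SMART-Seq v4 and Nextera XT and reads were paired, from a NovaSeq, per the labels' protocols. Per the same protocols and the submitters' processing notes, BBDuk trimmed the reads, HISAT2 2.1.0 placed them on GRCm38 and HTSeq 0.11.2 counted them. The annotation named there is GRCh38.78, a human build, but 53360 of 53465 gene identifiers (99.8%) are in GENCODE M21, which gave coordinates and exon lengths. The 3 lines of text that name no gene were left out. No strand is stated.

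The 39 pairs of libraries that share a number and all labels were summed, since a chi-square for each gene of 20 counts or more had a median of 1.222 within pairs, against 17.271 between other samples. This left 85 samples. Counts per M (CPM) were computed from the sums. Cell types and treatments were compared with edgeR 4.0.16 (quasi-likelihood test, TMM, filterByExpr with a minimum count of 10 and minimum total of 15, a term for the sex label; R 4.3.3), with Benjamini-Hochberg adjustment over all genes tested and a threshold of 0.05. The script was tested on simulated data. EtOH was compared with PBS with all samples and with the kept samples, cell types in EtOH and PBS with the kept samples, and all comparisons of CBM with all samples. The alternatives comprised DESeq2 1.42.0, edgeR with the size factors of DESeq2, no filter, no sex term, other sets of samples, each replicate left out and, added after seeing the data, library totals alone. In CBM, T cell and B cell samples share numbers in their titles, and all 12 same-numbered pairs deviated together (correlations 0.15 to 0.48, median 0.304), so the numbers pair these samples. The fit with the number as a block called 58 genes for T cells against B cells. The CBM calls given in the results did not use the block.

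The genes and lists were chosen with earlier results of these data known. Genes named are the 3 highest by mean CPM per complex (2 for complex II), the 5 with the lowest p in each direction of each comparison (the 3 with the lowest p, as not passing, where fewer than 3 passed) and the isoform sets. Others named for promoter sequence, an overlap with other genes, groups that did not overlap or a call shared by treatments were chosen after their values were seen. Depth sets the precision: at a total of 0.33 M counts, 1 CPM is less than 1 count. Counting is subject to shared sequence: 19 of the 84 genes have at least 10% of their 50-base stretches in other genes, and 27 overlap a gene on the other strand.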

Additional observations from a re-analysis of the deposited data

Results flagged for a closer look

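In groups of 4 to 10 samples, 38 of 365 values of a gene or complex had a highest or lowest sample set apart from the others by Dixon's criterion, which chance meets in about 1 of 20 groups. No gene moved in opposite directions in every sample of 2 cell types.

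EtOH monocyte replicate 52, a sample of 6.02 M counts that goes against no label, was the highest in 21 of these. Its complex I genes summed to 4587 CPM, complex II to 1230 CPM and complex III to 1710 CPM. In complex I it had 276.9 CPM of Ndufa1, 42.7 CPM of Ndufa12, 232 CPM of Ndufa4, 69.7 CPM of Ndufab1, 45.5 CPM of Ndufb4, 241.2 CPM of Ndufb8, 62.4 CPM of Ndufc1, 75.5 CPM of Ndufs3, 168.1 CPM of Ndufs8 and 214.6 CPM of Ndufv2. In complexes II and III it had 555.5 CPM of Sdhb, 244.2 CPM of Uqcr11 and 539.8 CPM of Uqcrc1. In complexes IV and V it had 171.8 CPM of Cox5a, 144.2 CPM of Cox5b, 56.9 CPM of Cox7a2l, 357.7 CPM of Atp5j and 45.5 CPM of Atp5l. The comparisons of EtOH monocytes rest in part on it.

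The sample labelled PBS monocyte replicate 17, which goes against a label, was the highest of its group with 828.5 CPM of Atp5a1, 202.9 CPM of Ndufa10, 64.3 CPM of Ndufa12, 111.7 CPM of Ndufs3, 146.8 CPM of Ndufv1, 90.5 CPM of Ndufv3 and 651.2 CPM of Sdha. The sample labelled EtOH T cell replicate 29, which also goes against a label, was the lowest of its group with 15 CPM of Ndufa12, 27.2 CPM of Ndufab1 and 96.2 CPM of Ndufv2.

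PBS T cell replicate 4 was the highest of its group with 100.6 CPM of Atp5e, 9.8 CPM of Cox6a2, 76.9 CPM of Ndufb9 and 183.3 CPM of Uqcrh. Single samples stood highest for Cox6a2 in EtOH monocytes (6.99 CPM in replicate 43, which goes against a label), Cox6b2 in EtOH T cells (5.78 CPM in replicate 35) and Sdhd in PBS B cells (162.9 CPM in replicate 5).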

How the results depend on the processing

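With library totals, 12 log2 differences of called genes changed sign and no longer passed: Ndufb10 (-0.02) for monocytes against B cells in CBM, Sdhc (-0.00) there in EtOH, and Atp5c1 (-0.04), Cox6c (-0.07), Ndufb8 (-0.02), Sdhb (-0.04) and Uqcrh (-0.02) there in PBS; and Atp5l (-0.08), Cox5b (-0.09) and Uqcrq (-0.01) for monocytes against T cells in EtOH, and Atp5l (-0.07) and Ndufs8 (-0.07) there in PBS. No other alternative changed the sign of a called gene. With library totals, the direction that most calls take flipped for monocytes against T cells in CBM and EtOH, for monocytes against B cells in EtOH and PBS and for CBM against PBS in T cells. Of the values of single genes, 1843 stayed on their side of the threshold, 78 no longer passed, 36 passed newly and 1 had its value moved. Counts of genes called moved by over 1.5 times as follows. For EtOH against PBS with kept samples, DESeq2 gave 1 for T cells and 3 for B cells. For B cells no filter gave 1, no sex term 2 and leaving out each replicate 0 to 3 (3 without PBS replicate 2, 2 without EtOH replicate 30), against 0. For CBM against PBS, size factors gave 17 in T cells; no filter gave 6 and library totals 25 in B cells; DESeq2 and library totals each gave 18 in monocytes. For T cells against B cells in EtOH (15), DESeq2 gave 27, size factors 24, no filter 0, no sex term 31, all samples 25, library totals 36, leaving out the sample of under 1 M counts 26, and leaving out each replicate 3 to 26. Leaving out each replicate gave 20 to 38 in PBS. For monocytes against B cells, library totals gave 19 in EtOH and no filter 14 in PBS, and leaving out each replicate gave 35 to 45 in EtOH and 24 to 40 in PBS. For monocytes against T cells, no filter gave 16 in CBM, 1 in EtOH and 12 in PBS, library totals gave 29 in EtOH and 55 in PBS, all samples gave 10 in PBS, and leaving out each replicate gave 9 to 15 in EtOH and 13 to 31 in PBS. The cause of these moves was not tested. With the sample number as a replicate block, CBM gave 58 for T cells against B cells, 55 for monocytes against B cells and 16 for monocytes against T cells, against 55, 49 and 25 without it. The rule that each pair must correlate above 0.1 was met by T and B cells (12 of 12, median 0.304). Monocytes and B cells (12 of 13, median 0.354) and monocytes and T cells (9 of 12, median 0.321) missed it. Pairs of different numbers had medians of -0.021, -0.033 and -0.045, and 8 of 12, 10 of 13 and 6 of 12 samples correlated best with their own number. Most monocyte samples thus deviated with their own number too. The main CBM calls did not use the pairing. No paired analysis was possible for EtOH and PBS because their samples share no numbers between groups. The main limits are the batch that separates CBM from the other treatments, the 15 samples against a label and the dependence of monocyte directions on the scaling.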
